A study of Mus musculus with 4 samples.

Results

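The 9 genes described here were taken as a fixed list of megakaryocyte and platelet-bias genes, *Pf4*, *Ppbp*, *Vwf*, *Selp*, *Itga2b*, *Gp1ba*, *Gp1bb*, *Gp5* and *Gp9*, out of 23906 gene symbols measured in each library. All 9 were found, and all 9 reached a value of at least 1 in at least 1 library, in FPKM, the number of sequenced fragments scaled to transcript length and to library size. The RNA came from LSK-SLAM cells (lineage-negative, Sca1-positive, cKit-positive, CD150-positive and CD48-negative), a gate that enriches for haematopoietic stem cells (HSCs). The cells were taken from *BRE-GFP* transgenic mice, kept on a C57BL/6 background, in which a BMP-responsive element drives GFP while Smad1/5 signalling is on. There were 4 libraries and 4 groups, with 1 library for the GFP+ and 1 for the GFP- fraction of the fetal liver (FL) at embryonic day 14 and likewise of adult bone marrow (BM). Every group carried the transgene. How many embryos or mice were pooled into a library is not given in the sources used here, and the antibodies named for the lineage gate did not include any against CD41 or CD42, the proteins of *Itga2b* and of the glycoprotein Ib-IX-V genes.

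Megakaryocytes are the large marrow cells that shed platelets. Platelets catch on damaged vessel walls when the glycoprotein Ib-IX-V receptor binds von Willebrand factor, then aggregate through the αIIbβ3 integrin and release stored chemokines and adhesion proteins from their alpha granules. Part of the HSC pool expresses genes of this lineage at low levels, and *Vwf* reporters in particular have been used to mark HSCs with a bias towards platelet output. The 9 genes cover the alpha granule chemokines (*Pf4*, *Ppbp*), the adhesion proteins that platelets and endothelial cells both store (*Vwf*, *Selp*), the integrin αIIb chain (*Itga2b*) and the subunits of glycoprotein Ib-IX-V (*Gp1ba*, *Gp1bb*, *Gp5*, *Gp9*).

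The promoters of 4 of these genes are shown because the first 3 belong to genes with more transcript in BM and the fourth to a gene with more in FL. Each is the RefSeq window of 300 bases from 250 before to 50 after the start site on GRCm38.p6, written 5′ to 3′ on the gene's own strand. Capitals mark GATA (the core letters of the GATA factor motif) and CCGGAA (letters of an ETS factor motif), on either strand, as TATC and TTCCGG in reverse.
Pf4, chr5:90772185-90772484, plus strand: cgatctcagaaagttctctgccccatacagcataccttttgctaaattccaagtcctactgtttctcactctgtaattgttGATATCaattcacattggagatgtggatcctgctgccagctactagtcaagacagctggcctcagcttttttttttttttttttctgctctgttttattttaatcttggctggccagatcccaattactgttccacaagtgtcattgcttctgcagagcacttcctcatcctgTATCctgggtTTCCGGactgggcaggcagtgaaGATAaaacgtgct
Gp1ba, chr11:70638872-70639171, plus strand: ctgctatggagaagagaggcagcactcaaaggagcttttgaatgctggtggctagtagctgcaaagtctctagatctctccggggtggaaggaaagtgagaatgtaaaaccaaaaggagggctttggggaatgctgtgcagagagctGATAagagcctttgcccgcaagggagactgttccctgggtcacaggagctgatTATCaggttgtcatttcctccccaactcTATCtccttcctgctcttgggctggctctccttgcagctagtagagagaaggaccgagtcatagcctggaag
Gp5, chr16:30310732-30311031, minus strand: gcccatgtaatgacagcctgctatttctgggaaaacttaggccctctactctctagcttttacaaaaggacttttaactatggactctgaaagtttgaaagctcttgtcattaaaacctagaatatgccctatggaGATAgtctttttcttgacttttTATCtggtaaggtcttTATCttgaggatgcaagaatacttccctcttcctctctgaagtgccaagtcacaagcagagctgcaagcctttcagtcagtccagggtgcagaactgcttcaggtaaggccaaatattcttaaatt
Gp9, chr6:87777820-87778119, plus strand: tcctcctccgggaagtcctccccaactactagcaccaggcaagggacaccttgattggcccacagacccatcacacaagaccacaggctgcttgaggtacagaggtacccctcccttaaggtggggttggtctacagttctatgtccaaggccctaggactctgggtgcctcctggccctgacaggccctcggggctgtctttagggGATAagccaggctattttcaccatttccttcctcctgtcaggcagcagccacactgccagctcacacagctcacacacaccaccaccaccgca
The *Pf4* window held 4 GATA matches, a pair of which overlap as a palindrome, and 1 CCGGAA match after the start site. The *Gp1ba* and *Gp5* windows held 3 GATA matches each, and the *Gp9* window held 1, which began 43 bases before the start site. Among windows not shown, those of *Ppbp* (1 match), *Gp1bb* (2) and *Itga2b* (0) belong to genes higher in BM. That of *Selp* (2) belongs to a gene higher in FL, so the number of matches did not follow the tissue order. RefSeq windows were matched for 8 of the 9 genes, all but *Vwf*. Of the 8, 7 held GATA, all but *Itga2b*, against 57.9% of the 32851 promoter windows of that length. CCGGAA was in 1 of the 8 and in 14.9% of all windows, and TGACTCA (either strand, TGAGTCA in reverse, letters of the AP-1 and NF-E2 motif) was in 0 of the 8 and in 5.2% of all. A match is a run of letters and not evidence of binding.

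Each group held 1 library, so no difference between groups has a replicate check, no test was run and no *P* value is given. A gene is called higher or lower where its FPKM in one library was more than 2 times that in the other. The study asked for this fold in FL and in BM together, a joint rule that is also applied below. Differences are also given as log2(FPKM + 1) in the first library minus that in the second, a scale that understates changes of low values. The study gives the uniquely mapped reads of each library, but the deposited FPKM carry no counts, so the number of fragments behind a value is not known. A gene without signal is described as listed at 0. Genes above 0 numbered 12372 to 17345 per library, fewest in FL GFP+ cells, and summed FPKM ranged from 541453 in FL GFP- to 1000848 in BM GFP+ cells. Libraries are named by their deposited labels. A plot of the study labelled as BM shows, for other genes, values near those of the deposited FL libraries with GFP+ and GFP- exchanged, so the labels were checked with marker genes. Of 10 fetal genes, 7 were over 2-fold lower and 0 higher in BM than in FL, in GFP+ and in GFP- cells alike. Among all symbols 27% were lower and 36% higher in GFP+ cells, and 21.9% and 29.2% in GFP- cells. *Igf2bp1* had 426 (GFP+) and 58.8 (GFP-) in FL against 0 and 0.0184 in BM, and *H19* had 44.7 and 42.1 against 0 and 0.0368. The GFP transcript is not a row of the files. Of 6 BMP target genes, 4 were over 2-fold higher and 1 lower in GFP+ than in GFP- cells of BM, and in FL 0 were higher and 2 lower. Among all symbols 18% were higher and 36.7% lower in BM, and 16.5% and 38.4% in FL. *Id1*, a direct Smad1/5 target, had 109 (GFP+) and 56.5 (GFP-) in FL and 70.4 and 17.5 in BM, while *Id3* had 96.6 and 97.03 in FL and *Bambi* 0.0145 and 1.20. The GFP labels of the FL libraries were thus not settled by these genes.

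Both BM libraries held transcripts of marker genes of mature blood cells, which the gate should remove. Most of these markers, like most of the platelet genes, were higher in BM than in FL. For comparison, 36% of all symbols in GFP+ cells and 29.2% in GFP- cells were over 2-fold higher in BM. All 9 of 9 neutrophil markers were over 2-fold higher in BM than in FL within GFP+ and within GFP- cells, with summed FPKM of 576 (GFP+) and 283 (GFP-) in FL and of 62294 (GFP+) and 15918 (GFP-) in BM. All 8 of 8 B cell markers did the same, from 96.3 (GFP+) and 43.5 (GFP-) in FL to 3493 (GFP+) and 955 (GFP-) in BM, and *Pax5* and *Ebf1*, which define B cells, were listed at 0 in both FL libraries. Mast cell and basophil markers, 6 of 6, summed to 0.0425 (GFP+) and 10.2 (GFP-) in FL and to 809.9 (GFP+) and 271 (GFP-) in BM. *Cd48* and *Ly6c2*, whose proteins the gate excludes, had FPKM of 126 and 605 in the GFP- and 267 and 1102 in the GFP+ library of BM. Within BM, 8 of the 10 erythroid markers measured (some globin rows share their values) and 6 of the 9 neutrophil markers were more than 2-fold higher in GFP+ cells, while 7 of 7 stem cell genes were more than 2-fold lower there (summed FPKM 32.6 against 165). Of all symbols, 18% were higher and 36.7% lower in BM GFP+ than in BM GFP- cells. *Procr*, which encodes the HSC surface protein EPCR, was listed at 0 in BM GFP+ cells and at 60.8 in BM GFP- cells. Unlike the neutrophil sums, the summed FPKM of the 9 platelet genes was lower in BM GFP+ (403) than in BM GFP- cells (507). *Pf4* alone made up most of both sums (245 and 315). *Ppbp* and *Gp1bb* were higher in BM GFP+ cells, and *Gp1ba* was almost equal. In bulk samples, more cells of a type and more RNA per cell cannot be told apart, and the part of mature cells in the results that follow was not tested.

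**Figure D1:**
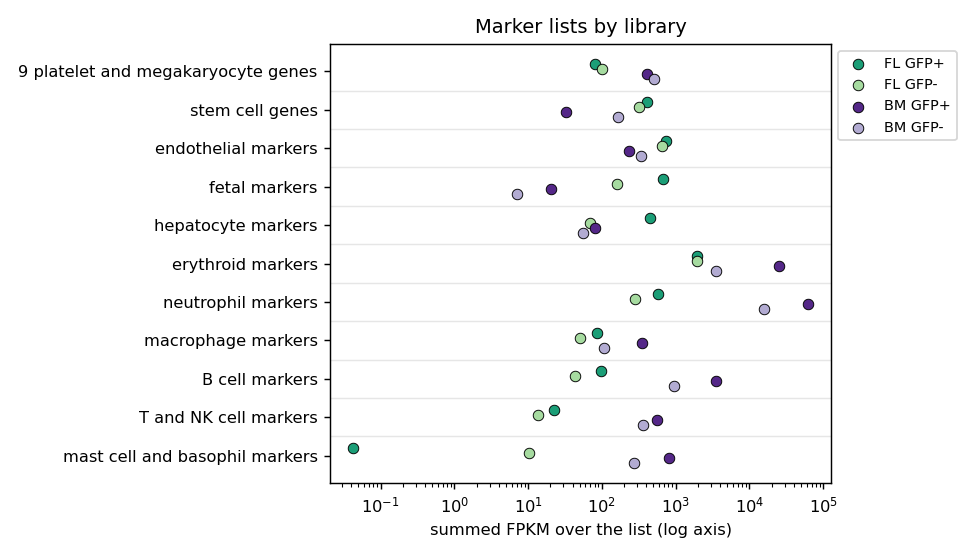
Summed FPKM (log axis) of the 9 platelet and megakaryocyte genes and of marker lists for other cells, with 1 point per library. The 9 genes summed to 80.7 and 101 in FL and to 403 and 507 in BM, and the neutrophil markers spanned 283 to 62294, with the highest value in BM GFP+ cells.

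The alpha granule chemokine genes showed the widest range. *Pf4* encodes platelet factor 4 (NCBI37/mm9 chromosome 5, 91201461 to 91202407). In FL it was listed at 0 (GFP+) and had an FPKM of 6.45 (GFP-), and in BM it had 245 (GFP+) and 315 (GFP-). The BM libraries were thus far above both FL libraries, and in BM GFP- cells *Pf4* exceeded 97.9% of the genes detected. Between the GFP- libraries it was 48.9-fold higher in BM (log2 difference 5.41). In GFP+ cells no fold can be given because FL was at 0, and the log2 difference of 7.94 depends on the pseudocount. *Ppbp*, its neighbour on the same strand of chromosome 5 (91197544 to 91199086), encodes pro-platelet basic protein, the precursor of further platelet chemokines. In FL its FPKM was 0 (GFP+) and 2.93 (GFP-), and in BM it was 45.8 (GFP+) and 26.6 (GFP-). As for *Pf4*, both BM libraries were above both FL libraries, by 9.07-fold between the GFP- libraries. The order of the BM fractions was opposite for the pair, with *Pf4* 1.29-fold higher in GFP- and *Ppbp* 1.73-fold higher in GFP+ cells, both within 2-fold. The ratio of *Pf4* to *Ppbp* FPKM, a comparison per length of transcript, was 2.20 in the FL GFP- library, and 5.34 (GFP+) and 11.9 (GFP-) in BM. The other 5 CXC chemokine genes of the cluster did not share these levels. *Cxcl2* reached 9.75 in BM GFP+ cells and 2.17 in BM GFP- cells, and *Cxcl1*, *Cxcl3*, *Cxcl5* and *Cxcl15* stayed under an FPKM of 0.5 in every library, with *Cxcl1* listed at 0 in all 4. In GFP+ cells 1 of the 5 was higher and 1 lower in BM than FL, and in GFP- cells 2 were higher and 1 lower, at these low values.

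The adhesion genes *Vwf* and *Selp* had the opposite tissue order. *Vwf* encodes von Willebrand factor and lies on chromosome 6 of NCBI37/mm9 (125496792 to 125636697). In FL its FPKM was 5.68 (GFP+) and 4.90 (GFP-), and in BM it was 0.955 (GFP+) and 3.55 (GFP-). *Selp* encodes P-selectin, which moves from granules to the cell surface on activation, and lies on chromosome 1 (166045395 to 166080157). It had 18.8, 18.1, 2.61 and 9.43 in the same order. For both genes the FL libraries were nearly equal and lay above both BM libraries, and BM GFP+ cells were lowest. BM GFP- cells had 3.71 times the *Vwf* and 3.62 times the *Selp* of BM GFP+ cells. FL GFP+ cells had 5.95 times the *Vwf* and 7.23 times the *Selp* of BM GFP+ cells, whereas between the GFP- libraries FL was higher by 1.38-fold and 1.92-fold, within the 2-fold rule. The *Selp* to *Vwf* ratio of FPKM varied little, from 2.66 to 3.70 over the libraries. *Selp* overlaps the antisense gene *Gm16548* over 1436 bases. That gene had an FPKM of 1.28 to 3.24, and no source used here states that the library kept strand.

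Endothelial cells also make *Vwf* and *Selp*, so endothelial genes are given beside them. Of 15 endothelial markers, 7 were over 2-fold lower and 3 higher in BM than FL in GFP+ cells, and 10 lower and 2 higher in GFP- cells. Over all symbols 27% were lower and 36% higher in GFP+ cells, and 21.9% and 29.2% in GFP- cells. The summed FPKM of the 15 markers was 751 (GFP+) and 655 (GFP-) in FL and 233 and 341 in BM. *Esam*, *Eng* and *Tie1*, which HSCs express as well, made up much of this sum, with 183, 178 and 85.7 in the FL GFP+ library against 20.9, 25.7 and 0.037 in BM GFP+ cells. *Emcn* had 65.8 and 36.6 in FL against 0.0797 and 16.4 in BM, and *Tek* had 41.5 and 43.0 against 0 and 5.54, GFP+ first. *Plvap* was higher in BM GFP+ than in FL GFP+ cells, at 26.1 against 21.0, which is within 2-fold. In GFP- cells it was lower in BM, at 2.34 against 11.4 in FL. *Cdh5*, which encodes the endothelial VE-cadherin, was between 0.230 and 1.77 in all 4 libraries, and *Sele*, an endothelial selectin, was listed at 0 in both FL libraries. The part of endothelial cells in the levels of *Vwf* and *Selp* was not tested. The stem cell genes had the same order as *Vwf* and *Selp*, with summed FPKM of 409 and 323 in the FL libraries, 165 in the GFP- and 32.6 in the GFP+ library of BM.

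**Figure D2:**
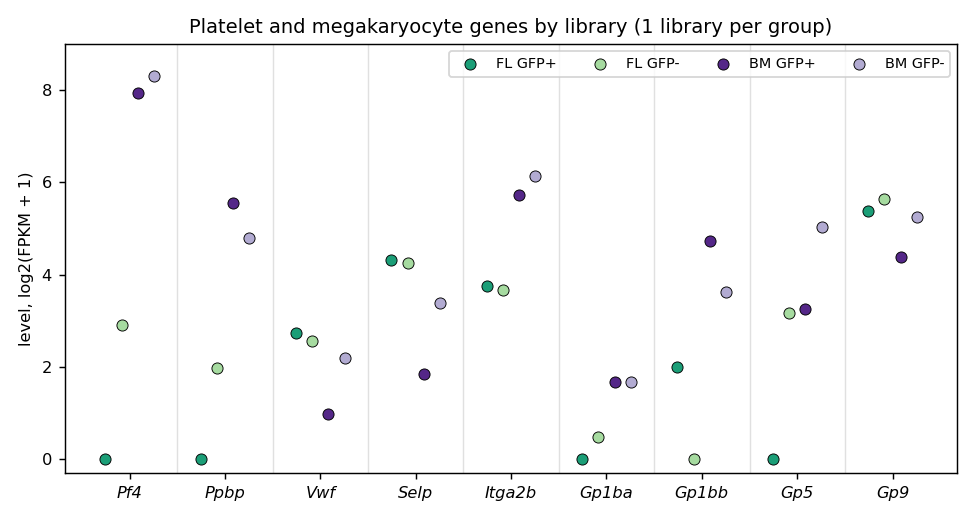
Level of each of the 9 genes as log2(FPKM + 1), with 1 point per library and the 4 libraries of a gene side by side. *Pf4* ran from 0 in FL GFP+ to 8.31 in BM GFP- cells, while *Vwf*, *Selp* and *Gp9* were highest in FL and lowest in BM GFP+ cells.

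*Itga2b* encodes the αIIb integrin chain (CD41), which is made from early haematopoietic progenitors onwards and is kept at high levels in megakaryocytes. It lies on chromosome 11 of NCBI37/mm9 (102314611 to 102331436). In FL its FPKM was 12.5 (GFP+) and 11.7 (GFP-), and in BM it was 52.2 (GFP+) and 69.8 (GFP-). The tissues were apart by 4.17-fold in GFP+ and 5.94-fold in GFP- cells, and the fractions within each tissue differed by no more than 1.34-fold. *Itgb3*, the β3 chain with which αIIb forms the fibrinogen receptor, was lower in every library, at 0.0375 (GFP+) and 3.26 (GFP-) in FL and at 5.84 (GFP+) and 5.83 (GFP-) in BM. The ratio of *Itga2b* to *Itgb3* FPKM was 3.60 in the FL GFP- library, and 8.93 (GFP+) and 11.97 (GFP-) in BM. In FL GFP+ cells *Itgb3* was thus close to 0 while *Itga2b* was detected.

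The subunit genes of glycoprotein Ib-IX-V differed in their order over the libraries. *Gp9*, a small subunit needed to bring the complex to the surface (chromosome 6, 87728130 to 87729756), was well detected throughout. In FL its FPKM was 40.6 (GFP+) and 48.6 (GFP-), and in BM it was 19.99 (GFP+) and 37.1 (GFP-). Both FL libraries were above both BM libraries, with BM GFP+ cells lowest and only just past the 2-fold rule against FL GFP+ cells (2.03-fold). *Gp5*, the subunit held least tightly (chromosome 16, 30307772 to 30310865), had 0 (GFP+) and 7.95 (GFP-) in FL, and 8.60 (GFP+) and 31.5 (GFP-) in BM. It was the only one of the 9 that passed the 2-fold rule in favour of GFP- cells in both tissues, by 3.67-fold in BM and against a value of 0 in FL.

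*Gp1ba*, the chain that binds von Willebrand factor (chromosome 11, 70452624 to 70456328), was the lowest of the subunits in both BM libraries. In FL its FPKM was 0 (GFP+) and 0.398 (GFP-), and in BM it was 2.18 (GFP+) and 2.16 (GFP-). The BM libraries were thus almost equal and both above FL. *Gp1bb* encodes the β chain bound to it (chromosome 16, 18620412 to 18622496). Its row had 3.02 (GFP+) and 0 (GFP-) in FL and 25.7 (GFP+) and 11.2 (GFP-) in BM, and was the only one of the 9 higher in GFP+ cells by the 2-fold rule in both tissues (2.28-fold in BM). The *Gp1bb* row was identical in all 4 libraries to that of *Sept5*, the gene just upstream on the same strand, which overlaps it by 593 bases in the annotation. The values of the pair are therefore not separable, and how much of this row is *Gp1bb* transcript is uncertain.

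Summed over the 4 subunit genes, FPKM was 43.7 (GFP+) and 57.0 (GFP-) in FL and 56.4 (GFP+) and 82.1 (GFP-) in BM. *Gp9* took 93.1% (GFP+) and 85.3% (GFP-) of it in FL, and 35.4% and 45.2% in BM. In BM *Gp5* took 38.4% (GFP-) and 15.2% (GFP+), and *Gp1ba* took at most 3.85% in any library. The *Gp1bb* row took the most in BM GFP+ cells, 45.5%, and 13.7% in BM GFP- cells. Without that row, *Gp9* took 64.97% (GFP+) and 52.4% (GFP-) of the sum in BM, so the former share depends on a row that cannot be separated from *Sept5*. The ratio of *Gp9* to *Gp5* was 6.11 in the FL GFP- library, and 2.32 (GFP+) and 1.18 (GFP-) in BM.

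**Figure D3:**
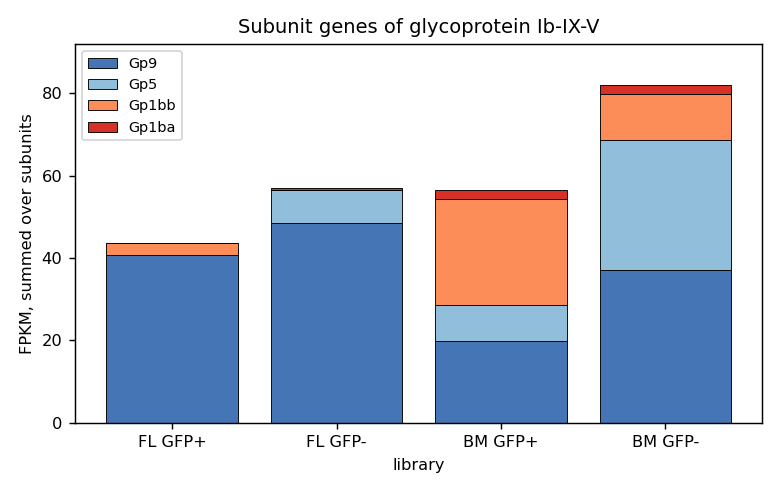
FPKM of the 4 subunit genes of glycoprotein Ib-IX-V, stacked for each library. *Gp9* made up most of the FL sums of 43.7 and 57.0, while *Gp5* (31.5) and the *Gp1bb* row (25.7) were prominent in BM GFP- and BM GFP+ cells.

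Across tissues, the 9 genes fell into 6 whose FL libraries were both below both BM libraries (*Pf4*, *Ppbp*, *Itga2b*, *Gp1ba*, *Gp1bb*, *Gp5*) and 3 whose FL libraries were both above (*Vwf*, *Selp*, *Gp9*). Over the 18859 symbols detected in any library the same orders were found for 21.2% and 15.8%. In GFP+ cells 6 of the 9 were more than 2-fold higher in BM, against 36% of 14837 symbols, and 3 were lower, against 27%. In GFP- cells the same 6 genes were higher, against 29.2% of 18409 symbols, and 0 were lower, against 21.9%, with *Selp* nearest to the limit at 1.92-fold. The median log2 difference of the 9 genes, BM minus FL, was 1.98 in GFP+ and 1.86 in GFP- cells, and over all symbols detected it was 0.07 and 0.05.

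Between fractions, fewer of the 9 genes passed the 2-fold rule than between tissues. In FL, 1 was higher in GFP+ cells (*Gp1bb*), against 16.5% of 16092 symbols, and 4 were lower (*Pf4*, *Ppbp*, *Gp1ba*, *Gp5*), against 38.4%. Each of these 5 calls was against a value of 0. Hepatocyte markers also differed between the FL fractions, with 6 of 8 over 2-fold higher and 1 lower in GFP+ cells (summed FPKM 452 against 69.7, and *Alb* 140 against 9.49), and their part in these calls was not tested. Of the 7 that reached an FPKM of 1 in FL GFP- cells, 3 were listed at 0 in FL GFP+ cells, and of all 11519 such symbols 12% were. The 4 genes above 0 in all libraries (*Vwf*, *Selp*, *Itga2b*, *Gp9*) differed by at most 1.20-fold between the FL fractions. In BM, 1 was higher in GFP+ cells (*Gp1bb*), against 18% of 17802 symbols, and 3 were lower (*Vwf*, *Selp*, *Gp5*), against 36.7%. The median log2 difference, GFP+ minus GFP-, was −0.25 in FL and −0.41 in BM, and over all symbols detected −0.06 in both. The shares called lower were close to those over all symbols in both tissues. By the rule joining both tissues, 1 gene was high in GFP+ cells (*Gp1bb*) and 1 in GFP- cells (*Gp5*), against 3.15% and 16.4% of 15035 symbols. The call for *Gp1bb* in BM was lost, and *Gp9* was called lower in GFP+ cells, when the libraries were scaled to one FPKM total.

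**Figure D4:**
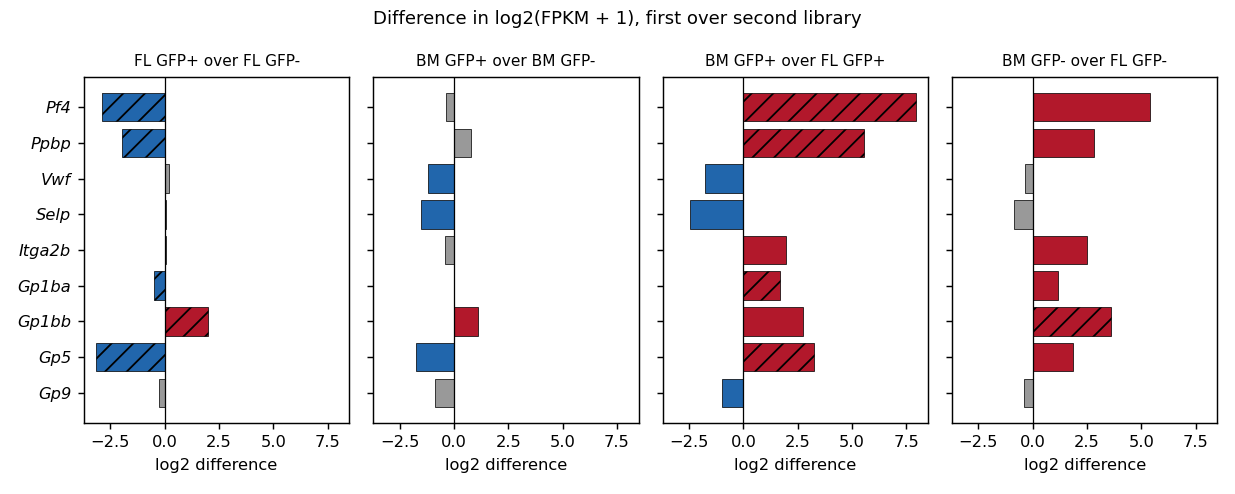
Difference in log2(FPKM + 1) of each gene in the 4 comparisons, first library minus second. Red and blue bars are more than 2-fold higher and lower in FPKM, grey bars are within 2-fold, and hatched bars have a value of 0 in one of the libraries. BM minus FL ran from −2.46 (*Selp*) to 7.94 (*Pf4*) in GFP+ cells and from −0.88 (*Selp*) to 5.41 (*Pf4*) in GFP- cells, and GFP+ minus GFP- from −3.16 (*Gp5*) to 2.01 (*Gp1bb*) in FL and from −1.76 (*Gp5*) to 1.12 (*Gp1bb*) in BM.

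The 3 genes nearest in pattern were sought for each of the 9, as the smallest Euclidean distance between centred log2(FPKM + 1) profiles over the 4 libraries. With 4 points many genes come close, and the distances are a description only. Among the 9 themselves the closest were *Vwf* and *Gp9* (0.56), *Vwf* and *Selp* (0.64) and *Itga2b* and *Gp1ba* (0.95). The farthest were *Pf4* and *Selp* (8.64). Outside the list, the genes nearest to *Vwf* were *Fam216a* (0.09), *Mtap* (0.09) and *Cryl1* (0.10), and those nearest to *Selp* were *Srrd* (0.10), *Coil* (0.15) and *Dctd* (0.17). Those nearest to *Ppbp* included *Casp1* (0.44) and *Vpreb1* (0.48), of which *Vpreb1* is a marker of B cell progenitors. Those nearest to *Pf4* were *Dusp1* (0.95), *Hp* (1.003) and *H2-Q7* (1.03), and *Hp* is a neutrophil granule gene.

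The transcription factors of the megakaryocyte programme were detected at an FPKM above 1 in all 4 libraries, all 10 of them, and few were past 2-fold. In GFP+ cells 0 of 10 were higher and 3 lower in BM than in FL, and in GFP- cells 2 were higher and 0 lower, with median log2 differences of 0.03 and −0.34. Over all symbols 36% were higher and 27% lower in GFP+ cells, and 29.2% and 21.9% in GFP- cells. *Nfe2*, needed for platelet release, had 167 (GFP+) and 153 (GFP-) in FL and 156 (GFP+) and 192 (GFP-) in BM. *Fli1*, an ETS factor of megakaryocyte genes, had 102, 95.4, 86.6 and 64.1 in the same order. The tissues overlapped for *Nfe2*, whereas for *Fli1* both FL libraries were above both BM libraries, as for *Vwf*, *Selp* and *Gp9*, though within 2-fold. *Gata1*, the main erythroid and megakaryocyte GATA factor, had 36.5, 6.58, 41.0 and 49.3, lowest in FL GFP- cells by 5.55-fold against FL GFP+ cells. This order differed from that of *Pf4*, *Ppbp* and *Gp5*, which were at 0 in FL GFP+ cells. *Gata2* had 138, 87.6, 25.04 and 86.4, with its lowest value in BM GFP+ cells like *Vwf* and *Selp*. *Tal1* (35.4, 19.6, 8.51 and 14.2) and *Etv6* (49.1, 27.4, 18.8 and 20.8) were highest in FL GFP+ cells. For *Gata2*, *Tal1* and *Etv6* too, both FL libraries were above both BM libraries. For *Gata2* this was only just so, at 87.6 in FL GFP- against 86.4 in BM GFP- cells. The same order was found for 15.8% of the symbols detected in any library. *Gata2*, *Tal1* and *Etv6* were lowest in BM GFP+ cells, as were *Vwf* and *Selp*, whereas *Fli1* was lowest in BM GFP- cells. *Mef2c* and *Runx1* were highest in BM GFP+ cells (47.5 and 24.4) and lowest in BM GFP- cells (18.3 and 12.4). *Zfpm1* was lowest in FL GFP+ cells, at 1.72. *Gfi1b* had 31.7 and 25.6 in FL against 45.4 and 68.4 in BM, and was called higher in BM in GFP- cells (2.67-fold).

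Of 3 cytokine signalling genes, 1 was higher and 0 lower in BM than FL in GFP+ cells (*Lyn*), and 0 higher and 1 lower in GFP- cells (*Sh2b3*). *Sh2b3*, an inhibitory adaptor of cytokine signalling, had an FPKM of 109.8 (GFP+) and 90.1 (GFP-) in FL and 69.5 (GFP+) and 28.3 (GFP-) in BM. Both FL libraries were above both BM libraries, as for *Vwf* and *Selp*, but BM GFP- cells were lowest. *Lyn*, a kinase of the Src family, was highest in BM GFP+ cells, at 97.5 against 39.0 to 59.9, and *Jak2*, a kinase bound to cytokine receptors, was between 1.34 and 2.91. *Lyn* and *Jak2* did not have the tissue order of *Vwf* and *Selp*, and none of the 3 was lowest in BM GFP+ cells.

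Among other platelet genes more were higher than lower in BM, as was also so over all symbols. Of 15 further platelet receptor genes, 9 were higher and 3 lower in BM than FL in GFP+ cells, and 7 were higher and 2 lower in GFP- cells, with median log2 differences of 1.43 and 0.67. Over all symbols 36% were higher and 27% lower in GFP+ cells, and 29.2% and 21.9% in GFP- cells. *Cd9*, a tetraspanin abundant on platelets, had 59.7 (GFP+) and 73.2 (GFP-) in FL against 182 and 173 in BM. *P2rx1*, an ATP-gated channel, had the opposite order, with 52.7 and 48.6 in FL against 3.56 (GFP+) and 23.3 (GFP-) in BM. Between fractions, 4 of the 15 receptor genes were higher and 7 lower in GFP+ than in GFP- cells of BM. In FL 1 was higher and 8 lower. The shares of all symbols were 18% and 36.7% in BM, and 16.5% and 38.4% in FL. Among those lower, the thrombin receptor genes *F2r* and *F2rl3* had 7.98 against 40.4 and 10.9 against 39.6 in BM, GFP+ first. *F2rl3* was also lower in FL GFP+ than in FL GFP- cells, at 3.43 against 47.2. Of 12 further alpha granule cargo genes, 8 were higher and 1 lower in BM than FL in GFP+ cells, and 7 were higher and 3 lower in GFP- cells, with medians of 1.65 and 1.19. *F13a1*, the coagulation factor XIII A chain, which monocytes make too, had 2.24 and 2.13 in FL and 85.9 and 67.5 in BM. *Serpine2*, a protease inhibitor, had 0 and 7.03 in FL and 33.7 and 29.4 in BM. *Srgn*, the granule proteoglycan of many blood cells, had 413 and 409 in FL and 1290.4 and 1174 in BM. *Mmrn1*, which encodes multimerin, was listed at 0 in all 4 libraries.

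For genes of granule formation and of the platelet cytoskeleton most differences between tissues were within 2-fold. Of 7 granule biogenesis genes, 2 were higher and 1 lower in BM than FL in GFP+ cells, and 0 higher and 1 lower in GFP- cells. Of 9 cytoskeletal genes the counts were 3 and 1 in GFP+ cells and 2 and 0 in GFP- cells. The shares over all symbols were 36% higher and 27% lower in GFP+ cells, and 29.2% and 21.9% in GFP- cells. *Fermt3*, the integrin activator kindlin-3, had 295, 243, 216 and 228 in the 4 libraries in the order above, and *Tpm4* had 95.1, 92.6, 145 and 63.03. Within BM, 4 of the 9 cytoskeletal genes were higher in GFP+ cells and 0 lower, against 18% and 36.7% of all symbols.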

How the data were processed

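RNA was extracted with the mirVana kit from sorted LSK-SLAM cells and sequenced after SMARTer amplification, 1 library for each of 4 groups. The files hold FPKM. To make them, the authors aligned reads with Bowtie and TopHat, estimated FPKM with Cufflinks (version 2.2.1 in the submitters' processing notes) and Cuffquant, with its corrections for fragment bias and for reads of several loci, and scaled the libraries by Cuffnorm's geometric method. The study's methods name NCBI37/mm9 and the processing notes mm10, and the files hold symbols without coordinates. Gene positions are those of GENCODE vM1 on NCBI37/mm9, and promoters those of RefSeq on GRCm38.p6, and neither entered a value. FPKM are not counts, so no count model was fitted.

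Groups follow the sample titles. Calls used a ratio of FPKM above 2 over symbols above 0 in at least 1 of the compared libraries, and levels used log2(FPKM + 1). The genes and lists were chosen with earlier results of these data known. All 9 genes were named, with every gene of the factor, cytokine signalling and chemokine lists open to naming, of other lists those of highest FPKM or at 0 throughout, and the 3 nearest profiles for each of the 9, leaving out microRNA, small nucleolar RNA and numbered Gm genes and rows with shared values. Some genes are not reported here and were left out of the lists and of the genes named. The other genes named for cell identity or for their order (*Igf2bp1*, *H19*, *Id1*, *Procr*, *Pax5*, *Ebf1*, *Cd48*, *Ly6c2*, *Cdh5*, *Emcn*, *Tek*, *Plvap*, *Sele*, *Alb*, *Id3*, *Bambi*, *Itgb3*, *F2r*, *F2rl3*, *P2rx1*, *Serpine2*, *Tpm4* and *Tie1*) were picked after their values were seen. The alternatives were a pseudocount of 0.1, thresholds of 1.5-fold and 4-fold, an FPKM of at least 1, and scaling to one FPKM total or one upper quartile. Python 3.11.15, numpy 2.4.6, pandas 2.3.3 and matplotlib 3.10.9 were used, and the calls and distances were tested on simulated data.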

Additional observations from a re-analysis of the deposited data

Results flagged for a closer look

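For 5 of the 9 genes the difference between GFP+ and GFP- cells had opposite signs in FL and BM. With 1 library per group these differences were not tested. The BM difference minus the FL difference, in log2(FPKM + 1), was 2.74 for *Ppbp* (−1.97 in FL, 0.76 in BM), −1.40 for *Vwf* (0.18, −1.22), −1.58 for *Selp* (0.05, −1.53), −0.50 for *Itga2b* (0.08, −0.41) and 0.49 for *Gp1ba* (−0.48, 0.01). The FL differences of *Vwf*, *Selp* and *Itga2b* were small and turned negative (−0.04, −0.19 and −0.15) when the libraries were scaled to one FPKM total, and the BM difference of *Gp1ba* turned to −0.29. The opposite signs of *Ppbp* remained under that scaling, at −2.31 and 0.32.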

How the results depend on the processing

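No paired analysis was possible because the results come from no test, each group holding 1 library, and for the same reason no library could be left out within a group. A layout of tissue and fraction without their interaction was not fitted. The 6 genes higher in BM were 6 in both fractions under both scalings, and 6 and 5 at 4-fold in GFP+ and GFP- cells. Of 56 recomputed counts and medians, 47 stayed within 1.5-fold of the reported value. For a median this was a shift of at most log2(1.5), and not a ratio of the medians. The medians of GFP+ over GFP- cells stayed within that limit under one FPKM total. They went from −0.25 to −0.51 in FL and from −0.41 to −0.86 in BM. Scaling to one FPKM total changed the genes higher in BM GFP+ than BM GFP- cells from 1 to 0, those lower in BM than FL GFP- cells from 0 to 1 (*Selp*, also 1 with one upper quartile and 1 at 1.5-fold), and the median of BM over FL in GFP+ cells from 1.98 to 1.37. A pseudocount of 0.1 raised that median to 3.05. In BM, GFP+ over GFP-, the genes higher numbered 2 at 1.5-fold and 0 at 4-fold, and those lower numbered 0 at 4-fold. Of 108 recomputed log2 differences of single genes, 14 moved by more than 1.5-fold, 12 of them with the pseudocount, and no called one changed sign. Scaling to one total shifted the median difference over all genes by −0.24 to −0.58, and to one upper quartile by −0.04 to −0.21, in log2. An alternative chosen after seeing the data left the *Gp1bb* row out of the subunit sum, and raised the share of *Gp9* in BM GFP+ cells from 35.4% to 64.97%. Read depth limits every value listed at 0, and the fragments behind single values are not known.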

Other observations

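In FL GFP+ cells *Tubb1*, the β1-tubulin of platelets, had an FPKM of 14.6, the highest of the 4 libraries, although *Pf4*, *Ppbp*, *Gp1ba* and *Gp5* were listed at 0 there. In FL GFP- cells *Tubb1* was itself listed at 0, while *Treml1*, a platelet granule receptor, had 2.98. In the BM libraries *Tubb1* had 4.22 and 5.07, and *Treml1* had 0.332 in GFP+ and 12.6 in GFP- cells, a 37.9-fold difference. These genes were chosen after their values were seen.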
